A study of Rattus norvegicus with 18 samples.

Results

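The 10 genes described here act at the start and in the course of DNA replication. They are Mcm2, Mcm3, Mcm4, Mcm5, Mcm6, Mcm7, Pcna, Rrm2, Ccnd1 and Ccne1, and they were found by their gene symbol among the 32623 genes of the count tables. All 10 were present and all 10 passed the filter on low counts, which kept 12904 genes. Liver RNA was sequenced from 18 male Wistar rats, 6 in each of 3 groups. The hepatotoxin CCl4 was inhaled by NASH rats over 6 weeks, during which their water held phenobarbital, and 4 weeks on a diet rich in fat and cholesterol (HFCD) followed. Rats of the NASH-CH group, a model of NASH with cirrhosis, took both agents for 8 weeks and then both agents together with the HFCD for 16 weeks. Control rats had no CCl4 and no HFCD, and were kept on standard chow and plain water. They were followed for 12 weeks, which matches neither the 10 weeks of the NASH protocol nor the 24 weeks of the NASH-CH protocol. The labels instead describe combined CCl4 and diet over the 10 or 24 weeks. The groups therefore differ in duration and in whether CCl4 was still given at the end, and these cannot be told apart from the stage of disease.

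Replication begins with licensing, in which the 6 proteins encoded by Mcm2 to Mcm7 are loaded on origins in G1 as a ring that later unwinds the DNA. Cyclin D1 (Ccnd1) with its partner kinases phosphorylates the retinoblastoma protein, which releases E2F factors, and cyclin E1 (Ccne1) with Cdk2 carries the cell into S phase. E2F factors drive transcription of many replication genes, among them the Mcm genes. Rrm2 is the small subunit of ribonucleotide reductase, which supplies deoxynucleotides, and Pcna is the sliding clamp that holds polymerases on the template. Most hepatocytes of an adult liver are quiescent and re-enter the cycle after injury or loss of tissue.

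The promoters of the Mcm genes are shown because these genes encode 1 complex and all had lower medians in NASH rats. RefSeq promoters of the GRCr8 assembly were found for 7 of the 10 genes, not for Mcm4, Rrm2 and Ccnd1. This assembly is another build than the Rnor_6.0 of the counts, and the sequences were matched by symbol alone. The letters TTTCCCGC, TTTCGCGC, TTTGCCGC and TTTGGCGC, which are forms of the E2F motif, were searched on both strands of the 300 bases from 250 before to 50 after each gene start, and overlapping matches were joined. All 5 Mcm promoters held at least 1 match, and those of Pcna and Ccne1 held none. Of all 33469 promoters in the table, 716 (2.14%) held a match, as did 411 of the 10276 promoters of tested genes (4.00%). Printed 5′ to 3′ on the strand of the gene, from 250 bases before to 25 after the start, with the matches in capitals, the promoters read:
Mcm2 (chr4:122918070-122918344, minus strand): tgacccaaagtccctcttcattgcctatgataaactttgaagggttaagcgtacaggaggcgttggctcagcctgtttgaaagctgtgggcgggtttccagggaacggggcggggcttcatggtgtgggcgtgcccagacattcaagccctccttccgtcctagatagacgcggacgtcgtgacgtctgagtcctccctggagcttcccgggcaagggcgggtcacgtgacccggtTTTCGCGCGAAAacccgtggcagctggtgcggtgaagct
Mcm3 (chr9:30733722-30733996, minus strand): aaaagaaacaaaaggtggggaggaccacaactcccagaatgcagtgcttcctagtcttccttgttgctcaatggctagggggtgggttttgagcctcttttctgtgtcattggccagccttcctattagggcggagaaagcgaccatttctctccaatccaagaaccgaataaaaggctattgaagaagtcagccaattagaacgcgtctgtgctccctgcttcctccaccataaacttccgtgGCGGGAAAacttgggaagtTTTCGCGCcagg
Mcm5 (chr19:13488563-13488837, plus strand): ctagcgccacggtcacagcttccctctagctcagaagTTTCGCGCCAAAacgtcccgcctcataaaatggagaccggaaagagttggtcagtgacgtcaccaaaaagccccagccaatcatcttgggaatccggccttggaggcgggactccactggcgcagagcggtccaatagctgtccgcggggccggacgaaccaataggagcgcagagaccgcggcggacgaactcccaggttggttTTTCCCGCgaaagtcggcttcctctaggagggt
Mcm6 (chr13:42404328-42404602, minus strand): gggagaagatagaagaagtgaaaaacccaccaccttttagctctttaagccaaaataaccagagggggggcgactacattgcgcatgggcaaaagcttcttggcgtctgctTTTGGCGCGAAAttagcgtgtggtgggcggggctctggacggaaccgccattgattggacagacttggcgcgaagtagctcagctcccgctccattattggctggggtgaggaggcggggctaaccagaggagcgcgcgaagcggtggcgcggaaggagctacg
Mcm7 (chr12:22163154-22163428, minus strand): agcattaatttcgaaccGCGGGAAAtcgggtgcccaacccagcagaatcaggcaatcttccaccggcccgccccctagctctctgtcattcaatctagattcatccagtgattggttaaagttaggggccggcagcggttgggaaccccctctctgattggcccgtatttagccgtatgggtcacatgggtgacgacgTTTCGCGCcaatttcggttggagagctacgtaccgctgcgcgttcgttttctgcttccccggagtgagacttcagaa

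The match lay close to the start in Mcm2, where it ended 3 bases before it, in Mcm3, where 1 of 2 matches spanned the start, and in Mcm5, where the nearer of 2 matches ended 1 base before it and the other lay 213 to 202 bases before it. In Mcm6 the match lay 139 to 128 bases before the start, and in Mcm7 the nearer of 2 matches lay 52 to 45 bases before it. Among promoters of related genes, 9 of 19 for origin licensing and firing and 17 of 38 for the replication fork held a match, against 1 of 14 for G2 and mitosis. The other lists had 1 of 9 for deoxynucleotide supply, 1 of 6 for G1/S cyclins, kinases and activators, and 2 of 9 for CDK inhibitors and pocket proteins. E2F factors and MuvB partners had 2 of 10. A match describes letters in a window and does not show binding.

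Totals were 19498534 to 27174015 counts per rat in the control group, 20827770 to 29491947 in the NASH group and 44680344 to 60117822 in the NASH-CH group. The NASH-CH libraries were deeper without overlap, so depth and that condition cannot be told apart. The share of counts taken by 7SK and signal recognition particle RNA genes also moved with group, from 15.2 to 21.0% in control rats and 13.9 to 16.2% in NASH rats to 10.5 to 12.6% in NASH-CH rats. Levels are given as CPM, counts relative to a library size scaled by the TMM method, with no correction for gene length, so values are compared between rats and not between genes. Several of the 10 genes were sparse. In NASH rats Rrm2 had 1 to 6 counts, Mcm5 2 to 10, Ccne1 4 to 18 and Mcm3 5 to 24 counts per rat, and counting error alone is wide there. Expected counts were fractional for Mcm4 in 15 rats and for Rrm2 in 10, as happens when reads are shared with another gene, so the values of these 2 genes are less certain. NASH-CH rat 5 stood apart from the other 5 rats of its group in many of these genes, and calls are given with and without it. In whole liver tissue, fewer cells of a type and less RNA per cell cannot be told apart.

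The median level of 9 of the 10 genes was lowest in the NASH group, and that of the tenth, Pcna, was lowest in the NASH-CH group. The median was highest in the control group for 8 genes and in the NASH-CH group for Ccnd1 and Ccne1. The plot of the levels in each rat shows these orders.

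**Figure D1:**
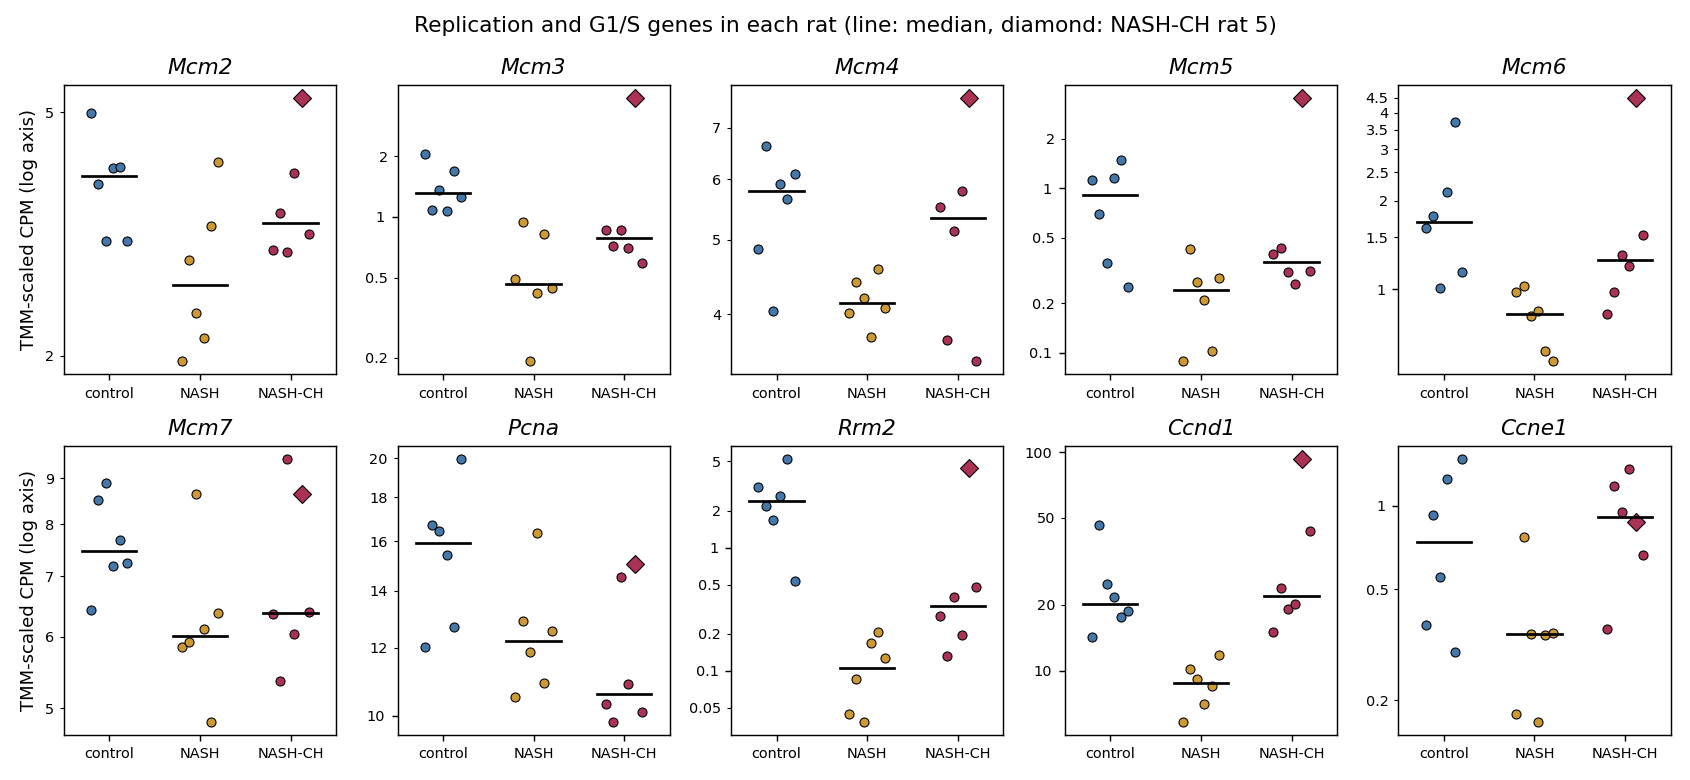
Level of each of the 10 genes in 6 control, 6 NASH and 6 NASH-CH rats, as TMM-scaled CPM on a log axis that differs between panels. Points are rats, lines are group medians, and the diamond is NASH-CH rat 5, which was highest of all 18 rats in 6 of the 10 genes.

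Among the Mcm genes, Mcm3 differed most clearly between NASH and control livers. Its lowest, median and highest levels were 1.07, 1.31 and 2.06 CPM in control rats, 0.193, 0.466 and 0.943 CPM in NASH rats, and 0.589, 0.789 and 3.88 CPM in NASH-CH rats. Every NASH rat lay below every control rat. Among NASH-CH rats, 5 lay below the lowest control rat and rat 5 lay above the highest. The log2 fold change in NASH was -1.42 (SE 0.56), and its p in the limma-voom fit was 0.150 once adjusted by the Benjamini-Hochberg method, while that in NASH-CH was -0.36 (SE 0.42, adjusted p = 0.594).

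Mcm5 ranged more widely within groups. It stood at 0.251, 0.908 and 1.49 CPM (lowest, median, highest) in control rats, 0.0891, 0.240 and 0.428 CPM in NASH rats and 0.262, 0.357 and 3.55 CPM in NASH-CH rats. All 6 NASH rats lay below the control median, and the groups overlapped, with control rat 6 the lowest of its group. Mcm6 stood at 1.01, 1.70 and 3.72 CPM in control rats, 0.569, 0.824 and 1.03 CPM in NASH rats and 0.821, 1.25 and 4.48 CPM in NASH-CH rats. Its control and NASH groups met at the edge, with the highest NASH rat just above the lowest control rat. The log2 fold changes in NASH were -1.65 (SE 0.83, adjusted p = 0.258) for Mcm5 and -1.13 (SE 0.49, adjusted p = 0.191) for Mcm6.

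Mcm2, Mcm4 and Mcm7, which had more counts, differed less between groups. Mcm2 stood at 3.08, 3.93 and 4.99 CPM in control rats, 1.96, 2.61 and 4.14 CPM in NASH rats and 2.96, 3.29 and 5.27 CPM in NASH-CH rats. Mcm4 stood at 4.04, 5.78 and 6.63 CPM in control rats, 3.73, 4.14 and 4.59 CPM in NASH rats and 3.48, 5.33 and 7.65 CPM in NASH-CH rats. Mcm7 stood at 6.42, 7.46 and 8.88 CPM in control rats, 4.83, 6.02 and 8.64 CPM in NASH rats and 5.35, 6.38 and 9.46 CPM in NASH-CH rats. All 3 genes overlapped between every pair of groups. Their log2 fold changes in NASH ran from -0.44 (SE 0.21) for Mcm2 to -0.30 (SE 0.16) for Mcm7, and the 95% interval for Mcm7 was -0.64 to 0.032. As a whole, the mean log2 CPM of the 6 Mcm genes stood at 1.39 ± 0.31 for control, 0.53 ± 0.20 for NASH and 1.14 ± 0.63 for NASH-CH rats (mean ± SD, n = 6). No NASH rat reached the lowest control rat on this mean, with 0.89 as the highest in NASH and 1.02 as the lowest in control.

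Pcna, the clamp, was the gene with the lowest median in NASH-CH. It stood at 12.03, 15.9 and 19.97 CPM in control rats, 10.5, 12.2 and 16.4 CPM in NASH rats and 9.84, 10.6 and 15.03 CPM in NASH-CH rats. All 6 NASH-CH rats lay below the control median, although the groups overlapped. The log2 fold changes were -0.32 (SE 0.15, adjusted p = 0.217) in NASH and -0.41 (SE 0.14, adjusted p = 0.0547) in NASH-CH.

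Rrm2, the ribonucleotide reductase subunit, showed the widest difference of the 10. Its levels were 0.538, 2.38 and 5.26 CPM in control rats, 0.0386, 0.106 and 0.205 CPM in NASH rats and 0.131, 0.338 and 4.47 CPM in NASH-CH rats. Every NASH rat lay below every control rat. In NASH-CH, 5 of the rats lay below every control rat, and rat 5 lay among the higher controls. Group means were 2.56 ± 1.59 CPM in control and 0.111 ± 0.0673 CPM in NASH rats (mean ± SD, n = 6), a ratio of 22.9. The fitted log2 fold change was -4.07 (SE 1.13, 95% interval -6.43 to -1.71, adjusted p = 0.0549) in NASH, where its size depends on the small value added to so few counts, and -1.94 (SE 0.66, adjusted p = 0.0511) in NASH-CH.

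Cyclin D1 had its highest median in the NASH-CH group, though only just above the control median. Ccnd1 stood at 14.3, 20.2 and 46.2 CPM in control rats, 5.84, 8.82 and 11.8 CPM in NASH rats and 15.01, 21.97 and 93.1 CPM in NASH-CH rats. The NASH group lay below both other groups without overlap, and the control and NASH-CH groups overlapped. With NASH-CH rat 5 set aside, the median of the other NASH-CH rats was 20.1 CPM, just below that of control. Its log2 fold change in NASH was -1.37 (SE 0.37, adjusted p = 0.0513), a level 2.59-fold lower, and in NASH-CH it was 0.34 (SE 0.35, 95% interval -0.41 to 1.08, adjusted p = 0.545). Cyclin E1 had a like order of medians with more overlap. Ccne1 stood at 0.298, 0.740 and 1.47 CPM in control rats, 0.168, 0.345 and 0.771 CPM in NASH rats and 0.360, 0.908 and 1.35 CPM in NASH-CH rats. Its log2 fold change was -1.18 (SE 0.51, adjusted p = 0.191) in NASH and 0.12 (SE 0.39, 95% interval -0.69 to 0.93, adjusted p = 0.856) in NASH-CH.

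**Figure D2:**
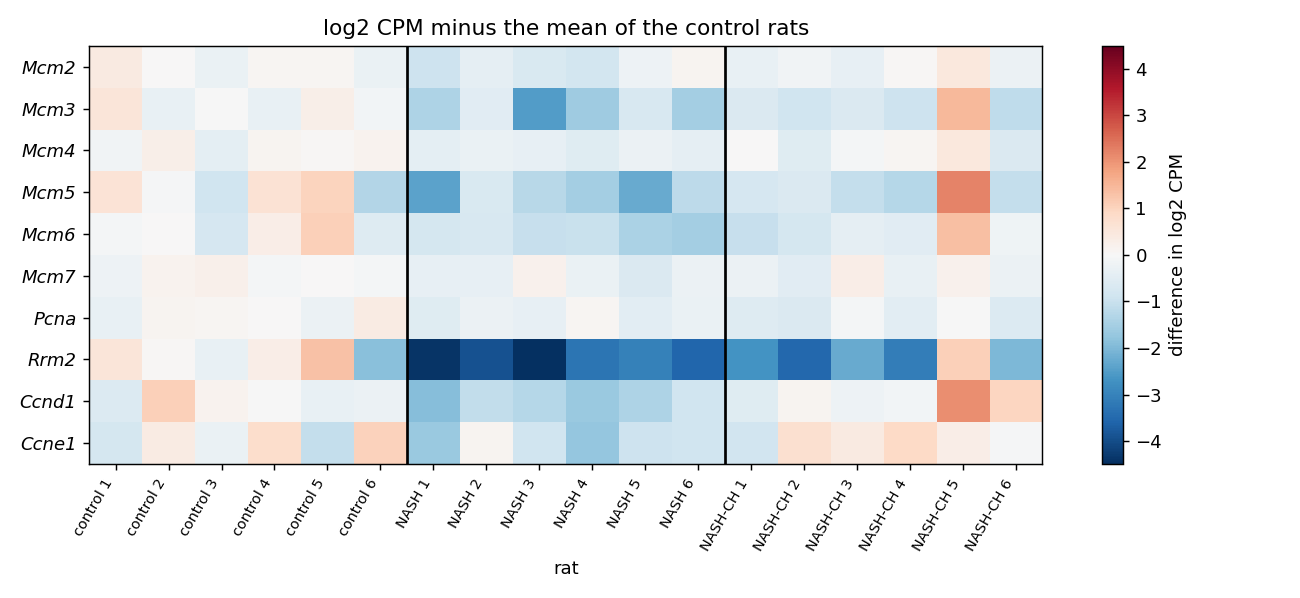
Log2 CPM (with a prior count of 2) of the 10 genes in each of the 18 rats, minus the mean of the 6 control rats. Blue is lower and red is higher than that mean, and the column of NASH-CH rat 5 is red for Mcm3, Mcm5, Mcm6, Rrm2 and Ccnd1 while the NASH columns are blue for Rrm2 and Ccnd1.

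Between NASH and control rats, all 10 log2 fold changes were below 0 (49.0% of all tested genes were), with a median of -1.15, while the median of all tested genes was 0.0072. None of the 10 passed an adjusted p of 0.05 in the limma-voom fit of 18 rats, where 3.12% of the tested genes passed in either direction and 1.54% were lower. At an unadjusted p under 0.05, 8 of the 10 were lower, where 21.5% of all tested genes were lower or higher at that level. Mcm3, Rrm2 and Ccnd1 were lower without overlap between groups, against 1.39% of all tested genes. Other tests of the same counts called some of them lower. The quasi-likelihood test of edgeR called Rrm2 and Ccnd1 (2.53% of all tested genes were lower by it), and DESeq2 called Mcm3, Mcm6, Rrm2 and Ccnd1 (5.10%). Adjusted p values of Rrm2 and Ccnd1 were 0.0123 and 0.0439 by edgeR and 2.3e-05 and 0.00462 by DESeq2.

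Between NASH-CH and control rats, 8 of the 10 log2 fold changes were below 0 (48.5% of all tested genes were), with a median of -0.16 against 0.013 for all tested genes. None of the 10 passed by limma-voom, where 17.0% of the tested genes passed. At an unadjusted p under 0.05, only Pcna and Rrm2 were lower, while 15.6% of all tested genes were lower at that level. The edgeR test called 0 of the 10 (19.0% of all tested genes), and DESeq2 called Pcna alone as lower (-0.41, adjusted p = 0.0419), where 10.9% of all tested genes were lower. The Mcm genes had log2 fold changes from -0.36 for Mcm3 to -0.07 for Mcm2. For Mcm2, Mcm4, Mcm6 and Mcm7 the sign turned when libraries were scaled by their totals alone, a scaling that moved the median of all genes to 0.27.

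Between NASH-CH and NASH rats, 9 of the 10 log2 fold changes were above 0 (51.3% of all tested genes were), with a median of 1.01 against 0.0068 for all tested genes. Only Ccnd1 passed by limma-voom, where 4.20% of the tested genes passed in either direction and 1.81% were higher. Its log2 fold change was 1.71 (SE 0.38, 95% interval 0.92 to 2.499, adjusted p = 0.0119), a level 3.27-fold higher. In 6 of 6 NASH-CH rats Ccnd1 lay above every NASH rat, a pattern that 1.36% of the tested genes had. It passed in all 18 fits that each left out 1 rat, with log2 fold changes of 1.39 to 1.90, the lowest without NASH-CH rat 5. Ccne1 followed with 1.30 (SE 0.45, adjusted p = 0.123), and it passed only without NASH-CH rat 1 (1.51, adjusted p = 0.0386) among these fits. Rrm2 (2.14, SE 1.17), Mcm5 (1.37, SE 0.79), Mcm3 (1.06, SE 0.52) and Mcm6 (0.96, SE 0.45) had adjusted p values of 0.280 to 0.386. Pcna was the gene with a value below 0, -0.09, with a 95% interval of -0.39 to 0.21. DESeq2 called Ccnd1, Ccne1, Mcm5 and Rrm2 higher, where 3.84% of all tested genes were higher. NASH-CH rat 5 had 3.55 CPM of Mcm5 and 4.47 CPM of Rrm2, where the other rats of its group did not exceed 0.435 and 0.479 CPM. DESeq2 was not run without that rat. By limma-voom without it, the adjusted p values of Mcm5 and Rrm2 were 0.578 and 0.512. The 3 comparisons share groups, so their values are not independent of each other.

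**Figure D3:**
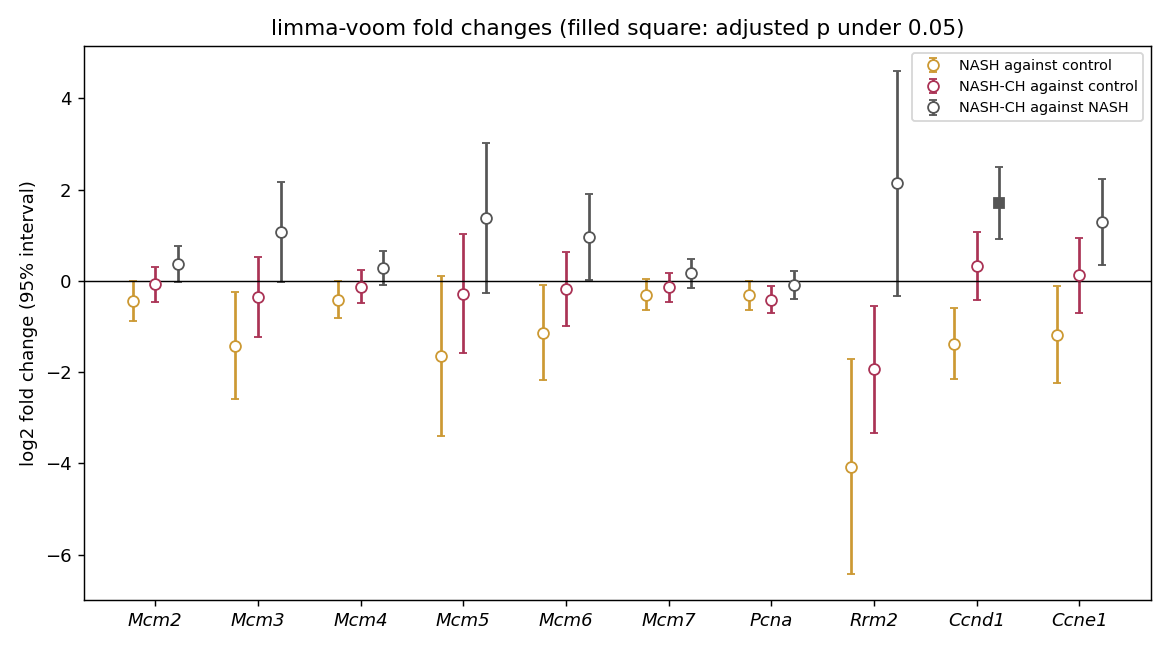
Log2 fold change of each gene in the 3 comparisons, with 95% intervals from limma-voom. Only Ccnd1 between NASH-CH and NASH rats has a filled square for an adjusted p under 0.05, and Rrm2 has the widest intervals.

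NASH-CH rat 5 had the highest level of its group in 8 of the 10 genes and the highest of all 18 rats in 6 of them. Relative to the median of the other 5 NASH-CH rats, its level was 15.9-fold for Rrm2 (4.47 against 0.280 CPM), 11.3-fold for Mcm5 (3.55 against 0.313 CPM), 5.41-fold for Mcm3 and 3.73-fold for Mcm6. Ccnd1 was 4.63-fold as high, with 93.1 CPM against 20.1 CPM, and NASH-CH rat 6 was the next with 43.3 CPM. The ratio was 1.67 for Mcm2, 1.49 for Mcm4, 1.46 for Pcna and 1.36 for Mcm7. Ccne1 was not raised in this rat, with a ratio of 0.920. Over all tested genes, this rat was the highest of its group in 25.4% and the highest of all 18 in 15.01%.

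Other lists moved in the same rat. It was the highest of all 18 in 13 of 13 genes of G2 and mitosis, with a summed level of 111.6 CPM against 9.36 to 13.3 CPM in the other 5 NASH-CH rats. Its summed level of 6 cholangiocyte markers was 41.3 CPM against 6.29 to 17.0 CPM, of 10 T and natural killer cell markers 22.6 against 11.4 to 14.9 CPM, and of 6 neutrophil markers 5.86 against 0.636 to 2.34 CPM. Hepatocyte and endothelial markers were lowest in it, with 76143 and 154.8 CPM. Sums for macrophages (200.1 CPM), stellate cells (413.7 CPM) and B and plasma cells (2.60 CPM) lay within the range of the other 5 rats, and the erythroid sum of 26.4 CPM lay above their highest, 23.4 CPM. The part of these cells in the levels of the 10 genes was not tested.

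Without NASH-CH rat 5, 5 of the 10 genes passed as lower in NASH against control, where 2.77% of the tested genes were lower. They were Rrm2 (-4.07, SE 0.76, adjusted p = 0.00688), Mcm3 (-1.41, SE 0.29, adjusted p = 0.0103), Ccnd1 (-1.37, SE 0.29, adjusted p = 0.0125), Mcm6 (-1.13, SE 0.30, adjusted p = 0.0376) and Mcm5 (-1.65, SE 0.47, adjusted p = 0.0495). The rat belongs to neither group of this comparison and the fold changes hardly moved. The spread is shared by the 3 groups in 1 fit, and the standard errors were smaller without the rat for 9 of the 10 genes, all but Ccne1. The rat was set apart for its levels of these same genes, so their spread shrank by selection. The share over all tested genes is therefore no fair measure for these 5 calls, which are not independent evidence. When the control and NASH groups were fitted alone, with no NASH-CH rat, Rrm2, Mcm3 and Ccnd1 passed as lower, where 2.34% of the tested genes were lower (adjusted p = 0.0154, 0.0253 and 0.0154). Mcm5 and Mcm6 did not pass in that fit.

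Against control, NASH-CH without this rat had 3 lower genes, where 8.59% of the tested genes were lower. The rat was set apart for its high levels of these genes, so leaving it out moves their NASH-CH values down by selection. The calls without it are therefore not independent evidence of lower levels in NASH-CH. Rrm2 fell by 2.81 on the log2 scale (SE 0.55, adjusted p = 0.00224), Mcm3 by 0.87 (SE 0.24, adjusted p = 0.0202) and Pcna by 0.49 (SE 0.14, adjusted p = 0.0256). The log2 fold change of Mcm5 moved from -0.28 to -1.02 (adjusted p = 0.0897) and that of Mcm6 from -0.17 to -0.59 (adjusted p = 0.125), while that of Ccnd1 moved from 0.34 to 0.020. Between NASH-CH and NASH, Ccnd1 alone passed without this rat (1.39, SE 0.29, adjusted p = 0.0104), where 1.61% of the tested genes were higher.

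**Figure D4:**
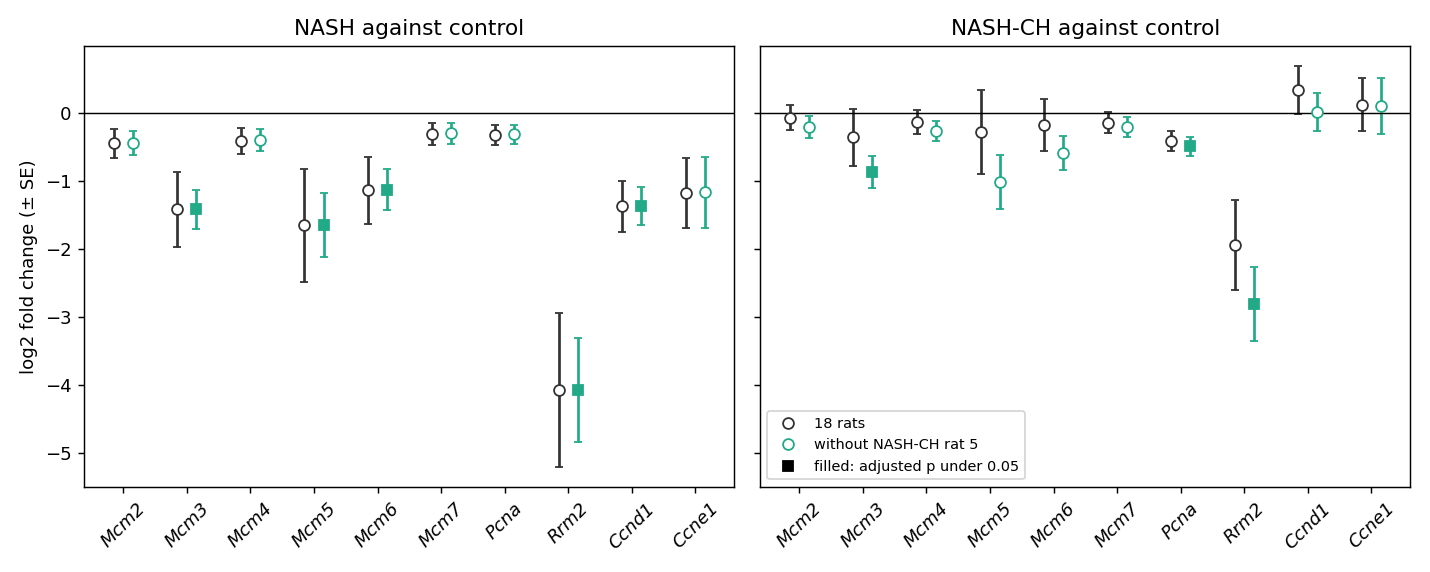
Log2 fold change (± SE) of the 10 genes against control from the fit of 18 rats and from the fit without NASH-CH rat 5. Filled squares mark an adjusted p under 0.05, which none of the genes had with 18 rats, and which 5 had in NASH and 3 in NASH-CH without that rat.

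Control rats also differed among themselves. Control rat 5 was the highest of its group in Rrm2 (5.26 CPM), Mcm6 (3.72 CPM) and Mcm5 (1.49 CPM), and in the summed levels of G2 and mitosis (55.5 CPM), erythroid (479.1 CPM) and macrophage markers (489.3 CPM). Control rat 6 was the lowest in Rrm2 and Mcm5, and was the highest in Pcna and Ccne1. Without control rat 6, Rrm2 (-4.53, adjusted p = 0.0136) and Ccnd1 (-1.43, adjusted p = 0.0385) passed as lower in NASH, and Rrm2 also in NASH-CH (-2.39, adjusted p = 0.00996). Calls over all tested genes rose in that fit too. In NASH 537 were lower, against 199 with all rats, and in NASH-CH 1291, against 1110. Ccnd1 passed in NASH as well without NASH-CH rat 1 (adjusted p = 0.0446) or rat 6 (adjusted p = 0.0485), where 170 and 231 of all tested genes were lower. Pcna passed as lower in NASH-CH without control rat 1 (adjusted p = 0.0359), control rat 5 (adjusted p = 0.0451) or NASH-CH rat 3 (adjusted p = 0.0333). In these fits 879, 813 and 1031 of all tested genes were lower in NASH-CH.

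Across the 18 rats, the genes whose log2 CPM was most like the mean of the 6 Mcm genes were genes of mitosis. These were Kif20b (Pearson's r = 0.96, Spearman's rho = 0.92), Prc1 (0.95 and 0.95), the proliferation antigen gene Mki67 (0.95 and 0.89), Cdk1 (0.95 and 0.93) and the topoisomerase gene Top2a (0.95 and 0.92). Without NASH-CH rat 5 the 5 Pearson values were 0.91 to 0.94, and within groups they were 0.91 to 0.93. The values within groups kept that rat, and those without it kept the group differences, so neither set left out both. The 5 genes were picked for the highest Pearson values of all tested genes, so high values follow in part from that choice. These values describe rats that also differ in group and in library depth. Rrm2 tracked the Mcm mean with r = 0.90 (0.91 without rat 5) and Ccnd1 with r = 0.73 (0.57 without rat 5), while Pcna had r = 0.34 and Ccne1 r = 0.38. Each Mcm gene was set against the mean of the other 5, and Mcm7 had the lowest value of the 6, r = 0.42.

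Other genes of the replication machinery are read against all tested genes, of which 3.12% passed in NASH and 17.0% in NASH-CH by limma-voom, and 21.5% and 31.7% had p under 0.05 before adjustment. Of 23 other genes of origin licensing and firing, 14 were tested and limma-voom called none in either model, and 1 in each had p under 0.05 before adjustment. The edgeR test called 0 in each, and DESeq2 called 1, Mcm10, as higher in NASH. The limma-voom fit without NASH-CH rat 5 again called none. Their medians were -0.059 and 0.014. Gmnn, whose product geminin restrains licensing, had -0.80 on the log2 scale in NASH (SE 0.46, adjusted p = 0.328), and Mcm10, which helps to start the fork, had 0.94 (SE 0.40, adjusted p = 0.186). In NASH-CH, the values largest by moderated t were -0.23 for the origin recognition gene Orc4 (adjusted p = 0.0965) and 0.41 for Donson (adjusted p = 0.173).

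Of 31 tested genes of the replication fork and chromatin assembly, Rpa3 fell in both models, and Pole4 fell in NASH-CH. Rpa3, a subunit of the protein that coats single-stranded DNA, stood at 7.24, 9.58 and 11.6 CPM in control rats, 4.49, 5.82 and 6.73 CPM in NASH rats and 4.66, 5.94 and 6.24 CPM in NASH-CH rats, so that both models lay below control without overlap. It fell by 0.69 (SE 0.14, adjusted p = 0.0130) and by 0.66 (SE 0.13, adjusted p = 0.00183) on the log2 scale. Pole4, a small subunit of a leading-strand polymerase, fell by 0.45 in NASH-CH (SE 0.11, adjusted p = 0.00893) and had -0.01 in NASH. It was also lower in NASH-CH than in NASH (-0.44, SE 0.11, adjusted p = 0.0240), the only call of that comparison among the 7 lists by limma-voom. By limma-voom Rpa1 (-0.70, adjusted p = 0.0841) and Rnaseh2a (-0.41, adjusted p = 0.0575) did not pass in NASH. Rnaseh2a was called lower in NASH by edgeR, by DESeq2 and by limma-voom without NASH-CH rat 5, and DESeq2 also called Rpa1 and Uhrf1. In NASH-CH all of these fits called Rpa3 and Pole4. Of the 31 genes, 27 had a value below 0 in NASH (median -0.26) and 21 in NASH-CH (median -0.12), against the 49.0% and 48.5% of all tested genes given above.

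Of 10 tested genes of deoxynucleotide supply, none passed in either model, and 1 in each had p under 0.05 before adjustment. Dtymk was called lower in NASH-CH by edgeR and DESeq2, and Tk1 in NASH by DESeq2. Once NASH-CH rat 5 was left out, limma-voom called the same 2 genes, Tk1 in NASH and Dtymk in NASH-CH. Rrm1, the partner subunit of Rrm2, had log2 fold changes of -0.26 (SE 0.15) in NASH and -0.08 (SE 0.15) in NASH-CH. The thymidine kinase gene Tk1 had -1.12 (SE 0.38, adjusted p = 0.1005) in NASH, and Dtymk had -0.32 (SE 0.12, adjusted p = 0.0744) in NASH-CH. Tyms, the thymidylate synthase gene, had 0.18 and 0.40.

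Of 10 tested G1/S cyclins, kinases and activators, none passed, with 3 at an unadjusted p under 0.05 in each model, and Ccna2 alone was called lower in NASH by both edgeR and DESeq2. When NASH-CH rat 5 was left out, limma-voom called Ccna2 lower in both models and Cdk6 lower in NASH-CH. With all rats, DESeq2 called Ccna2 higher in NASH-CH than in NASH. Ccna2, the cyclin of S phase, was below every control rat in all NASH rats, with 0.359 to 1.84 CPM in control and 0.0386 to 0.221 CPM in NASH rats, and its log2 value changed by -3.06 without passing (SE 0.93, adjusted p = 0.0733). Cdk2 and Cdk4, the kinases of cyclins E1 and D1, had 0.17 and -0.02 in NASH and 0.28 and 0.17 in NASH-CH. Ccnd2, another D-type cyclin, had -0.39 (adjusted p = 0.141) and -0.32 (adjusted p = 0.117).

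Of 8 tested CDK inhibitors and pocket proteins, Cdkn2c rose in NASH-CH. This inhibitor of the cyclin D kinases stood at 0.501, 1.09 and 1.54 CPM in control rats and 1.36, 2.08 and 2.80 CPM in NASH-CH rats, a rise of 0.96 on the log2 scale (SE 0.26, adjusted p = 0.0173). In NASH it had 0.73 (SE 0.28, adjusted p = 0.149). Cdkn1a, the gene of p21, had 1.16 (SE 0.49, adjusted p = 0.180) in NASH and -0.06 in NASH-CH, and its levels ranged from 9.39 to 55.8 CPM among control rats and from 21.1 to 114.2 CPM among NASH rats. Cdkn1b had -0.05 and -0.21, and Rb1 -0.08 and -0.18. Of 14 tested E2F factors and MuvB partners, Lin37, a subunit of the MuvB complex, fell by 0.50 in NASH-CH (SE 0.16, adjusted p = 0.0392). E2f1 had -0.60 (SE 0.41) in NASH and -0.26 (SE 0.35) in NASH-CH, and Mybl2 had 2.00 (SE 0.64, adjusted p = 0.0888) in NASH. DESeq2 called Mybl2 higher in NASH and Cdkn2b higher in NASH-CH. Mybl2 was called lower in NASH-CH than in NASH by edgeR, by DESeq2 and by limma-voom without NASH-CH rat 5. The calls of Cdkn2c and Lin37 were also made by all of these fits.

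The 13 tested genes of G2 and mitosis were lower in NASH by a median of -1.96, with 13 of 13 below 0. None passed by limma-voom, while 11 had an unadjusted p under 0.05 (21.5% of all tested genes) and 11 lay without overlap below the control rats (1.39%). By edgeR 3 passed as lower (Top2a, Ccnb1 and Cdc20) and by DESeq2 7. In NASH-CH, where the median was -0.74, all 3 tests called 0, with 2 at an unadjusted p under 0.05. Between NASH-CH and NASH, DESeq2 called 6 higher (Top2a, Cdk1, Ccnb1, Cdc20, Kif11 and Cenpf), where 3.84% of all tested genes were higher. There edgeR called 0, as did limma-voom with or without NASH-CH rat 5. Mki67 stood at 3.66 to 11.5 CPM in control, 1.16 to 1.93 CPM in NASH and 1.96 to 32.7 CPM in NASH-CH rats. Its log2 fold change was -1.95 (SE 0.76, adjusted p = 0.148) in NASH and -0.59 (SE 0.56, adjusted p = 0.496) in NASH-CH. Ccnb1, the mitotic cyclin, had the lowest value in NASH, -4.20 (SE 1.16, adjusted p = 0.0548), with 0 to 6 counts in NASH rats. Without NASH-CH rat 5, 11 of the 13 genes passed as lower in NASH and 10 in NASH-CH, against 2.77% and 8.59% of all tested genes. That rat was the highest of all rats in each of these genes, so its removal by itself moves their NASH-CH values down. It can also narrow the spread that the groups share, so neither set of calls is independent evidence. The summed level of the list was 16.2 to 55.5 CPM in control, 6.50 to 10.3 CPM in NASH and 9.36 to 13.3 CPM in the other 5 NASH-CH rats.

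**Figure D5:**
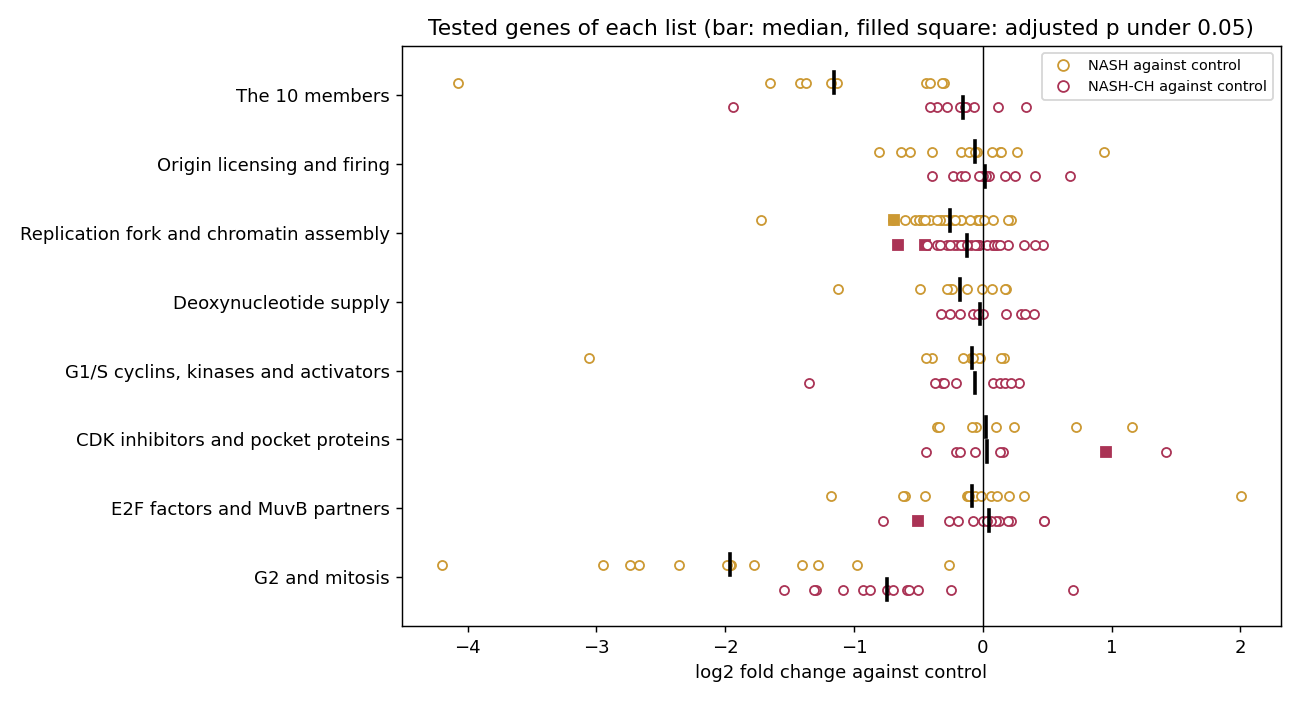
Log2 fold change against control of the tested genes in each list, for NASH and NASH-CH rats, from limma-voom with 18 rats. Bars are medians and filled squares mark an adjusted p under 0.05. The 10 genes (medians -1.15 and -0.16) and the G2 and mitosis genes (medians -1.96 and -0.74) lie farther below 0 in NASH than the other lists.

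Marker genes of liver cells were examined beside these values. Hepatocyte markers had median sums of 136462 CPM in control, 108622 CPM in NASH and 108422 CPM in NASH-CH rats, so that all groups carried the labelled tissue. Of 7 tested, 1 passed as higher and 1 as lower in NASH, and 1 as higher and 3 as lower in NASH-CH. In either direction 3.12% and 17.0% of all tested genes passed. Macrophage markers summed to 268.7 to 489.3 CPM in control, 188.9 to 278.8 CPM in NASH and 160.6 to 250.9 CPM in NASH-CH rats. In NASH, 1 of 8 passed as lower, and in NASH-CH 6 of 8, where 1.54% and 8.60% of all tested genes were lower. Without NASH-CH rat 5 the counts were 1 and 4. Stellate cell markers had median sums of 297.3, 242.0 and 372.4 CPM, and cholangiocyte markers 9.48, 7.30 and 14.1 CPM, in the order control, NASH and NASH-CH. Against control, 1 of 7 stellate cell markers passed as lower in NASH. In NASH-CH 3 passed as higher and 1 as lower, beside the shares of all tested genes given above. Against NASH, NASH-CH had 4 of 7 stellate cell markers and 1 of 4 tested cholangiocyte markers higher, where 1.81% of all tested genes were higher. Without NASH-CH rat 5 these counts were 2 of 7 (Des and Tagln) and 2 of 4 (Spp1 and Cldn4). Endothelial markers had median sums of 230.2, 259.9 and 239.5 CPM, T and natural killer cell markers 13.4, 14.3 and 14.4 CPM, neutrophil markers 0.693, 0.917 and 1.12 CPM, B and plasma cell markers 1.24, 1.88 and 1.51 CPM, and erythroid markers 35.5, 31.9 and 17.1 CPM. The defining genes Cd3d, Cd3e and Cd3g of T cells, Cd79a and Pax5 of B cells, Mpo, Elane and Cxcr2 of neutrophils and Klf1 of erythroid cells had medians under 0.1 CPM over the 18 rats. The part of macrophages, stellate cells and cholangiocytes in the levels of the 10 genes was not tested.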

How the data were processed

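Total liver RNA of 18 rats was sequenced, 1 library per rat, with a stranded mRNA kit. The authors trimmed adapters with Trim Galore, aligned reads to Rnor_6.0 with STAR and estimated gene counts with RSEM (versions not given in the sources used here), and deposited, for each rat, a table of expected counts with no scaling for depth or gene length. Groups were taken from the sample titles, which number the rats of each group 1 to 6; nothing states that equal numbers mark rats handled together. The labels name the RNAqueous-Micro kit and the methods another. Rats were separate animals that shared cages, and which rats shared a cage or litter is not stated.

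Expected counts were rounded, scaled by TMM (edgeR 4.0.16) and filtered by filterByExpr with its defaults, which left 12904 of 32623 genes. They were tested by limma-voom (limma 3.58.1, R 4.3.3), the test named in the study's methods, in 1 fit of 18 rats. The methods name no filter and do not say whether the groups shared 1 fit. Both were choices made here, so the shares of genes called are not the study's own. The p-values were adjusted by Benjamini-Hochberg over all tested genes of a comparison, at a threshold of 0.05. CPM are TMM-scaled, and log2 CPM has a prior count of 2. The 10 genes and all gene lists were chosen with earlier results of these data known. Named genes were the 10 members, from each list those with the largest moderated t against control, further genes fixed for their role, and the 5 genes most like the Mcm mean. Members called in an alternative were named after their values were seen. Alternatives were the quasi-likelihood test of edgeR, DESeq2 1.42.0, other scalings, filters and weights, 2 groups fitted alone, a replicate block and leaving out each rat. The tests were tried on simulated data. Promoters were read from a RefSeq table of GRCr8. Totals ran from 19498534 to 60117822 counts per rat and cover counting error only. Between rats of a group, the smallest chi-square per degree of freedom was 30.5, so no pair looked like a repeated deposit of 1 library. Figures were drawn with matplotlib 3.10.9.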

Additional observations from a re-analysis of the deposited data

Results flagged for a closer look

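Each group of 6 rats was searched for a single rat far from the others, by the gap to its nearest neighbour relative to the range of the group (Dixon's 95% critical value). Of 30 groups (10 genes in 3 groups), 7 held such a rat. Chance gives about 1 in 20 for independent normal values, and over all tested genes 8.26% of the groups held one, the control group for 5.95% of genes, the NASH group for 5.81% and the NASH-CH group for 13.03%. The 10 genes move together, so their groups are not independent. In 5 of the 7 it was NASH-CH rat 5, with 3.88 CPM for Mcm3, 3.55 CPM for Mcm5, 4.48 CPM for Mcm6, 4.47 CPM for Rrm2 and 93.1 CPM for Ccnd1. The other 5 NASH-CH rats did not exceed 0.861 CPM for Mcm3, 0.435 CPM for Mcm5, 1.53 CPM for Mcm6, 0.479 CPM for Rrm2 and 43.3 CPM for Ccnd1.

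Control rat 2 stood apart in Ccnd1, with 46.2 CPM where the next control rat had 24.8 CPM. NASH rat 2 stood apart in Ccne1, with 0.771 CPM where the next NASH rat had 0.348 CPM.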

How the results depend on the processing

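Of the 10 genes, 0 passed in NASH against control. The number was 2 by edgeR, 4 by DESeq2, 1 with library size only, 1 with no filter on low counts, 1 with at least 10 counts in every sample, 3 with the 2 groups fitted alone and 5 with sample quality weights, and 0 to 5 over 18 fits without 1 rat each, the most without NASH-CH rat 5. In NASH-CH against control 0 passed, and the number was 1 by DESeq2, 1 with DESeq2 size factors in limma-voom, 1 with library size only, 2 with no filter, 2 with quality weights and 0 to 3 without 1 rat. In NASH-CH against NASH 1 passed, and the number was 4 by DESeq2, 0 at an adjusted p under 0.01 and 1 to 2 without 1 rat. Counts over all tested genes moved as well. In NASH against control, 403 genes became 652 by edgeR, 1228 by DESeq2, 865 with library size only (785 higher and 80 lower, against 204 and 199), 268 with no filter, 644 with 2 groups alone, 1509 with quality weights, 39 at 0.01 and 128 to 982 without 1 rat. In NASH-CH against control, 2192 became 5495 with no filter, 1408 with 2 groups alone, 849 at 0.01 and 1519 to 2409 without 1 rat. In NASH-CH against NASH, 542 became 949 by DESeq2, 2649 with no filter, 349 with 2 groups alone, 239 at 0.01 and 346 to 591 without 1 rat.

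Log2 fold changes of the 10 genes turned sign only in NASH-CH against control, in 7 of 96 values outside the fits that left out 1 rat. Library size only gave 0.17 for Mcm2, 0.14 for Mcm4, 0.000174 for Mcm6 and 0.12 for Mcm7, with the median of all genes at 0.27. Mcm5 turned to 0.10 by edgeR and 0.071 by DESeq2, and Ccnd1 to -0.017 with quality weights. Without 1 rat, Mcm6 ran from -0.59 to 0.022 and Ccne1 from -0.12 to 0.36. The causes were not tested. The filter of 10 counts in every sample left some of the sparse genes without a value.

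With the replicate number as a block, 2 of the 10 genes passed in NASH against control, Rrm2 (adjusted p = 0.0155) and Ccnd1 (adjusted p = 0.0480), and no other call among them changed. The counts over all tested genes with the block were 444, 2095 and 540. Same-numbered rats deviated together little, with mean correlations of 0.052 for NASH and control, 0.073 for NASH-CH and control and 0.015 for NASH-CH and NASH. In the same order, only 2, 1 and 0 pairs were above 0.1. Of 12 rats in each comparison, 6, 5 and 3 correlated best with the rat of their own number, where chance gives 2. This is a hint of pairing from the data alone, and without a statement that equal numbers mark shared handling the numbers were not taken to pair the rats.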
